A study of Mus musculus with 2 samples.

Results

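Gene expression in mouse flexor tendon cells was compared between 6 h and 12 h of mechanical shear on 2 two-colour spotted cDNA arrays, 1 array per time. At each time RNA of sheared cells (Cy5) was set against RNA of unsheared control cells of the same time (Cy3). The 12 h cells were sheared at 50 RPM, the 6 h labels describe pooled sheared and pooled control cells and give no speed, and no strain, age, passage or number of animals is given. For every spot, the log ratio of sheared over control at 6 h was subtracted from that at 12 h, after each array had been centred on its own median. A gene's difference is the median over its probes, in log2 units, so that a difference of 1 is 2-fold higher at 12 h than at 6 h. A value was available for 5340 genes with at least 2 probes that name 1 gene, out of 10278 named genes measured on both arrays, and the 4938 genes with 1 probe were left out.

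Tendon cells, or tenocytes, are fibroblasts that build and maintain the collagen fibres carrying load from muscle to bone, and fluid or mechanical shear acts on them where tendons glide. Fibroblasts answer a mechanical stimulus in layers. Immediate-early transcription factors and stress genes respond first, and genes of matrix, metabolism and protein synthesis follow over hours. A comparison of a later with an earlier time describes which genes stand closer to control at the later time and which stand further from it.

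The values describe 2 arrays, and a second culture or a dye-swapped array was not analysed here, so no test between the times could be made and no p-value is given. Every difference holds 4 RNA samples: a gene that moved in the control cells between 6 h and 12 h gives the same value as one that moved in the sheared cells, and these cannot be told apart. The only error the arrays give is the spread between probes of 1 gene. That spread (pooled SD over 15476 probes of 5340 genes) was 0.73 at 6 h, 0.82 at 12 h and 0.74 for the difference, where independent errors on both arrays would give 1.09. For the 2832 genes with exactly 2 probes, the probes' differences correlated across genes with r = 0.23 (genes are not independent replicates), so a gene with 2 probes is a weak measurement. The direction, sheared over control, was taken from the labelled dyes and the red-over-green convention of such tables, and base 2 was assumed. Were the ratio the other way round, every sign below would turn. The ratios hold no signal brightness or detection call, so the tissue label cannot be checked by the presence of tendon genes, and depth is unknown.

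Across the 5340 genes the median difference was 0.12, with quartiles of -0.30 and 0.51. A difference of at least 1.5-fold, the size counted throughout, was found for 1131 genes (21.2%) higher at 12 h and for 756 genes (14.2%) lower. At 2-fold these were 368 genes (6.89%) and 251 genes (4.7%). With all of a gene's probes required to lie on one side of 0, 914 genes (17.1%) were higher and 541 (10.1%) lower by 1.5-fold. A difference above 0 of any size was found for 3074 genes (57.6%). On the single arrays, 20.9% of genes were at least 1.5-fold above control and 23.1% below it at 6 h, and 30.6% and 26.0% at 12 h. These shares are the background against which each gene list below is read. The balance between higher and lower depended on the scaling of the arrays. Of the genes counted, 59.9% were higher after median centring, against 42.9% (788 higher, 1048 lower) without centring and 33.7% (506 higher, 997 lower) after quantile normalisation. The median of all genes was then -0.03 and -0.05, so lists are given beside these values where the scaling matters.

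**Figure D1:**
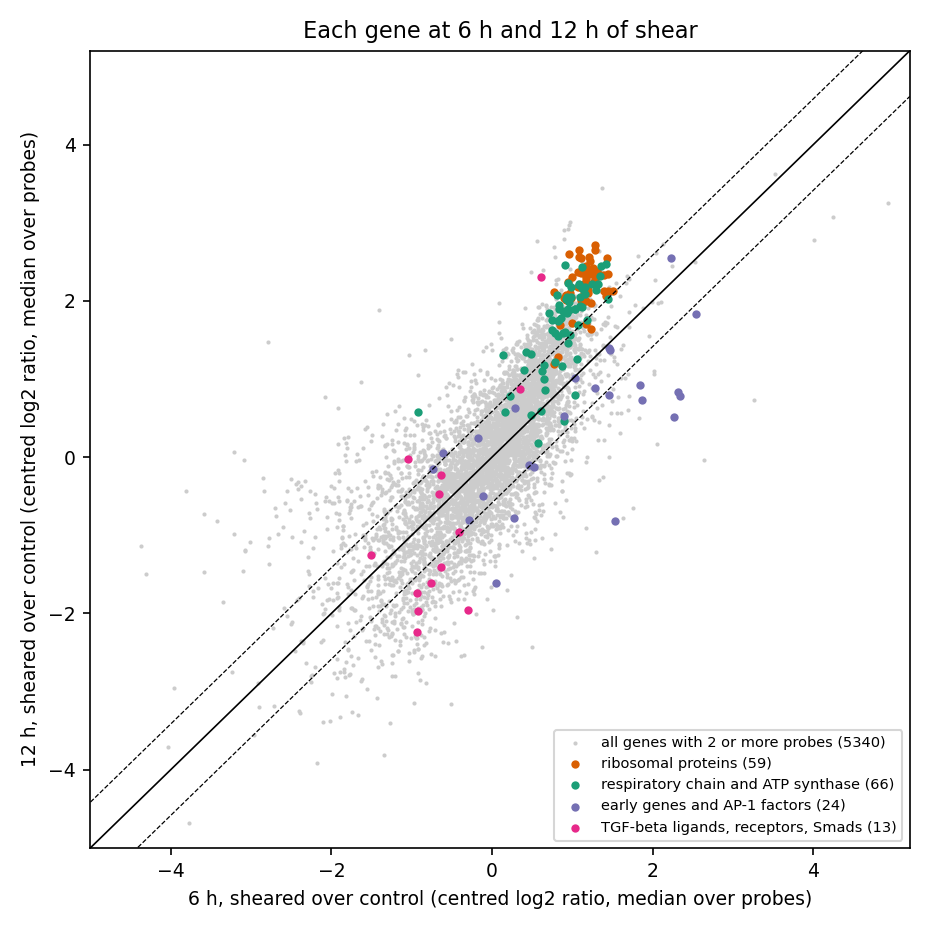
Centred log2 ratio of sheared over control cells at 6 h (horizontal) and 12 h (vertical) for 5340 genes, each point the median over the gene's probes; the solid line marks equal values and the dashed lines a 1.5-fold difference. The 59 ribosomal protein genes and most of the 66 genes of respiration lie above the upper dashed line or close to it, and several early genes lie far below the lower one.

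The clearest group of genes higher at 12 h encoded the cytosolic ribosome, the machine that makes protein. Of 39 large-subunit proteins, 38 were past 1.5-fold on the higher side and 0 on the lower, and 37 of them also had every probe above 0. Their median ratio of sheared over control was 1.17 at 6 h and 2.24 at 12 h, and the median difference was 1.01. Of 20 small-subunit proteins, 17 were higher and none lower, with medians of 1.17 and 2.21 and a median difference of 1.09. Against a background of 21.2% higher, these groups were thus already above control at 6 h and further above it at 12 h. The medians of the 2 times need not subtract exactly to the median difference, which is taken gene by gene.

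Rpl32, a large-subunit protein with 7 probes, read 1.47, 1.47, 0.90, 0.72, 0.86, 0.96 and 1.11 at 6 h and 2.60, 2.96, 2.85, 2.60, 2.43, 2.37 and 2.88 at 12 h. All 7 probes were higher at 12 h than any of them was at 6 h, and the difference was 1.57. Rps28, a small-subunit protein, read 1.08, 1.04 and 1.39 at 6 h and 2.65, 2.57 and 2.91 at 12 h on its 3 probes, a difference of 1.53. The probes of Rps28 differed from each other by less than 0.1 in the change between times. Rpl37a (difference 1.43, 8 probes), Rplp1 (1.30), Rps29 (1.38) and Rps20 (1.36) were the next of their subunits. At the low end stood Rpl3 (0.42), Rps6 (0.43), Rps19 (0.45) and Rps15 (0.57), which did not reach 1.5-fold. Ribosomal protein genes have many near-identical processed copies in the genome, and a cDNA spot cannot separate them.

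Mitochondrial respiration, which passes electrons to oxygen and uses the resulting proton gradient to make ATP, followed the same course. Cytochrome c oxidase, the last enzyme of the chain, had 12 of 13 subunits past 1.5-fold on the higher side and 0 on the lower, with medians of 0.98 at 6 h and 2.04 at 12 h and a median difference of 1.03. Of 27 complex I genes (the NADH dehydrogenase that feeds electrons in), 20 were higher and none lower, and the median difference was 0.86. Complexes II and III had 7 of 10 genes higher, with a median difference of 0.74, and ATP synthase 10 of 16, with 0.87. No gene of these lists was 1.5-fold lower, against 14.2% of all genes.

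Atp5g1, a subunit of the membrane ring of ATP synthase, read 1.47, 0.63, 1.37 and 1.33 at 6 h and 2.25, 2.24, 3.29 and 2.63 at 12 h. The lowest probe at 12 h lay above the highest at 6 h, and the difference was 1.46. Atp5h (1.33), Cox7a2 (1.33), Cox5b (1.19), Ndufs8 (1.13), Ndufb8 (1.10) and Uqcrh (1.08) were the other leading subunits. Cox6b2, a testis-type oxidase subunit, had the largest difference of its list at 1.499, but its probes gave 0.41 and 2.58. Atp5d (-0.56), Ndufs3 (-0.43) and Ndufv2 (-0.24) had differences below 0. These groups kept their direction under the other scalings, but not their size. With quantile normalisation, medians were 0.26 and 0.28 for the large and small ribosomal subunits, 0.31 for cytochrome c oxidase, 0.20 for complex I, 0.24 for complexes II and III and 0.17 for ATP synthase, all below 1.5-fold.

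Other parts of the mitochondrion stood closer to all genes. Mitochondrial ribosomal proteins, which translate the organelle's own messages, were higher for 15 of 50 genes and lower for 1 (median difference 0.37), led by Mrpl52 (1.41). Protein import had 7 of 18 genes higher (0.46), led by Tomm7 (1.40), a small part of the outer-membrane pore. TCA cycle enzymes held Idh3g (0.78) and Mdh2 (0.77) on the higher side and Suclg2 at -0.52. Glycolysis enzymes had a median difference of 0.38, with 3 of 11 higher and 1 lower, and a median of -0.02 with quantile normalisation. Tpi1, triose phosphate isomerase, differed by 0.98, and Hk1, the hexokinase that starts glycolysis, by -0.96.

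**Figure D2:**
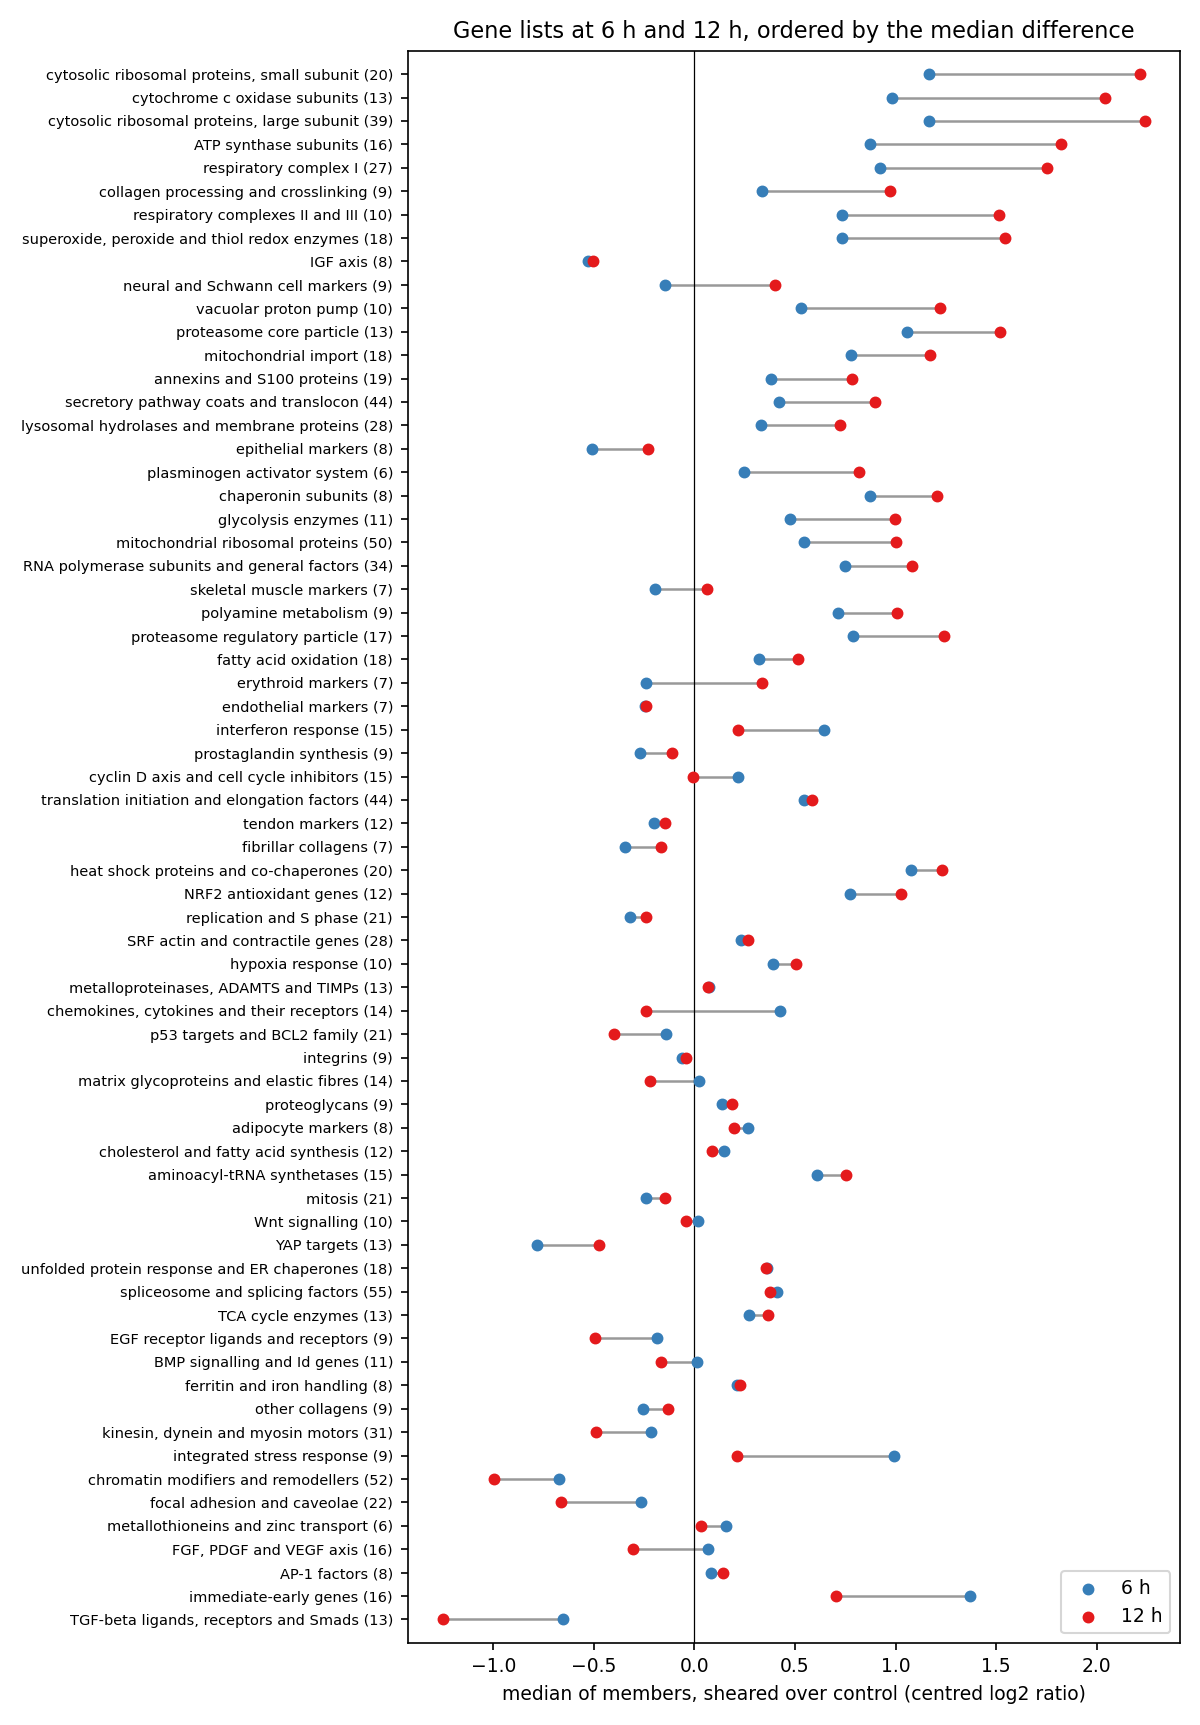
Median over the measured members of each gene list with 6 or more members (number in brackets) at 6 h (blue) and 12 h (red), as centred log2 ratio of sheared over control; lists are ordered by the median of their genes' own differences, which can differ from the gap between the dots. The ribosomal and respiratory lists at the top move from about 1 to about 2, and the early genes and TGF-beta list at the bottom move down.

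Promoters of these groups are shown because CCGGAAG, 1 of several short motifs searched, was commoner in them than among promoters of all measured genes. The windows are RefSeq promoters on mouse build GRCm38.p6, 250 bases before to 50 bases after each annotated start, and were found for 45 of the 59 ribosomal and 56 of the 66 respiratory genes. The motif CCGGAAG, the core bound by ETS-family factors, was searched on both strands. It was in 22 of 55 ribosomal windows (40.0%) and 16 of 60 respiratory windows (26.7%), against 1061 of 5632 windows (18.8%) of all measured genes and 8.86% of 32851 windows in the table. TGACGTCA and CACGTG were also commoner in both groups. TGACGTCA was in 4 ribosomal (7.27%) and 4 respiratory windows (6.67%), against 3.30% of all measured genes. CACGTG was in 12.7% and 11.7%, against 10.3%. A match is a run of letters and not a known binding site, and genes with several starts count more than once. The 100 bases before the start follow for Rps10 (small ribosomal subunit, difference 1.27), on the minus strand at chr17:27635245-27635344, and for Atp5h (ATP synthase, difference 1.33), on the minus strand at chr11:115419920-115420019. Capitals mark the motif, which in Atp5h stands in reverse complement, and both genes were chosen after their values were seen. The first base of the match lies 29 bases before the start of Rps10 and 38 bases before that of Atp5h.
Rps10: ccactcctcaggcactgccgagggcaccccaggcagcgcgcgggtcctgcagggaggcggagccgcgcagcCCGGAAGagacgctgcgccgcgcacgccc
Atp5h: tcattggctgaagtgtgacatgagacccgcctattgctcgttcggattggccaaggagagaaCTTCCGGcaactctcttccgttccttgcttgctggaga
Among the genes at least 2-fold higher at 12 h with all probes above 0, CCGGAAG was in 19.7% of 310 windows, close to its share of all measured genes.

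Enzymes that remove peroxide and superoxide or keep thiols reduced were also higher at 12 h. Of 18 such genes 11 (61.1%) reached 1.5-fold on the higher side and 0 on the lower. The list's median was 0.74 at 6 h and 1.54 at 12 h, with a median difference of 0.73. In the quintile of all genes with the highest mean of both times, 49.6% were 1.5-fold higher, with a median difference of 0.58. Gpx4, the glutathione peroxidase that repairs oxidised membrane lipids, read 1.14, 0.43, 0.77, 0.89 and 1.08 at 6 h and 2.12, 2.03, 2.08, 2.05 and 2.16 at 12 h. Its 5 probes at 12 h all lay above all 5 at 6 h, and the difference was 1.16. Gpx3 (1.14), Sod1 (superoxide dismutase, 1.05), Prdx1 (peroxiredoxin, 0.99) and Txn1 (thioredoxin, 0.88) had every probe above 0. The targets of NRF2, a transcription factor for antioxidant defence, took no such course as a list, with 3 of 12 higher, 1 lower and a median difference of 0.12. Hmox1, heme oxygenase, was its lower gene, at 3.75 and 4.27 on its probes at 6 h and 2.15 and 3.42 at 12 h, a difference of -1.23.

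The matrix genes split by function. The fibrillar collagens, the bulk of the tendon fibre, had no gene of 7 past 1.5-fold in either direction. Col1a1 differed by 0.16, Col1a2 by -0.16 and Col3a1 by 0.18. The proteins that fold, trim and crosslink collagen had 6 of 9 genes higher and none lower, with medians of 0.34 at 6 h and 0.97 at 12 h and a median difference of 0.74. Pcolce, which enhances removal of the procollagen tail, read 0.59, 0.34 and -0.82 at 6 h and 1.54, 1.48 and 0.16 at 12 h. Its probes stood at different levels, but each was higher at 12 h by 0.95 to 1.14, and the gene's difference was 0.98. Ppib (a prolyl isomerase of the endoplasmic reticulum, 0.92), Bmp1 (the procollagen C-proteinase, 0.75), Crtap (a partner of prolyl hydroxylation, 0.75) and Sparc (a collagen-binding glycoprotein, 0.74) had all probes above 0. P4hb (0.12), P4ha2 (0.41) and Serpinh1 (0.47) did not reach 1.5-fold. Col14a1, a collagen on the fibril surface, differed by 1.86, with probes at 0.60, 1.86 and 2.49.

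Of 12 measured tendon markers, Col14a1 was the 1 higher gene and Pdgfra, a growth factor receptor of mesenchymal cells, the 1 lower gene at -0.95, and the list's median difference was 0.16. Lists for other cells the cultures could hold were small. The median difference was 0.62 for 9 neural and Schwann cell markers (6 higher, none lower), 0.44 for 8 epithelial and for 3 leukocyte markers, 0.32 for 7 skeletal muscle, 0.22 for 7 erythroid, 0.21 for 7 endothelial and 0.03 for 8 adipocyte markers, and -0.09 for 3 cartilage and bone markers. The neural list ran from a median of -0.15 at 6 h to 0.40 at 12 h, with S100b at 0.64 and 1.09. How much of these differences comes from a share of other cells was not tested, and in a mixed RNA fewer cells of a type and less RNA per cell cannot be told apart.

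Cellular machinery for secretion, the lysosome and the proteasome core leaned the same way, less far. The secretory coats and translocon had 15 of 44 genes higher and 2 lower (median difference 0.45), lysosomal proteins 11 of 28 higher and 2 lower (0.44), and the vacuolar proton pump that acidifies lysosomes 5 of 10 higher (0.59, and 0.14 with quantile normalisation). The proteasome core had 5 of 13 genes higher, led by Psmb6 (1.12) and Psmb5 (1.07), and 1 lower, the immunoproteasome subunit Psmb9 (-1.17). The 2 probes of Psmb9 went opposite ways (-2.87 and 0.54), and keeping probes with several symbols gave 0.54. The direction of Psmb9 is thus not settled. The core's median difference of 0.56 became -0.03 with quantile normalisation. The proteasome's regulatory cap had 3 of 17 genes higher (17.6%, against 21.2% of all genes) and 0 lower. The cap's median difference was 0.28, and -0.09 with quantile normalisation. Psmd8, its leading gene, had 6 probes between 1.21 and 1.60 and a difference of 1.46. Ubiquitin conjugating enzymes had 4 of 21 genes higher (19.0%) and 2 lower.

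**Figure D3:**
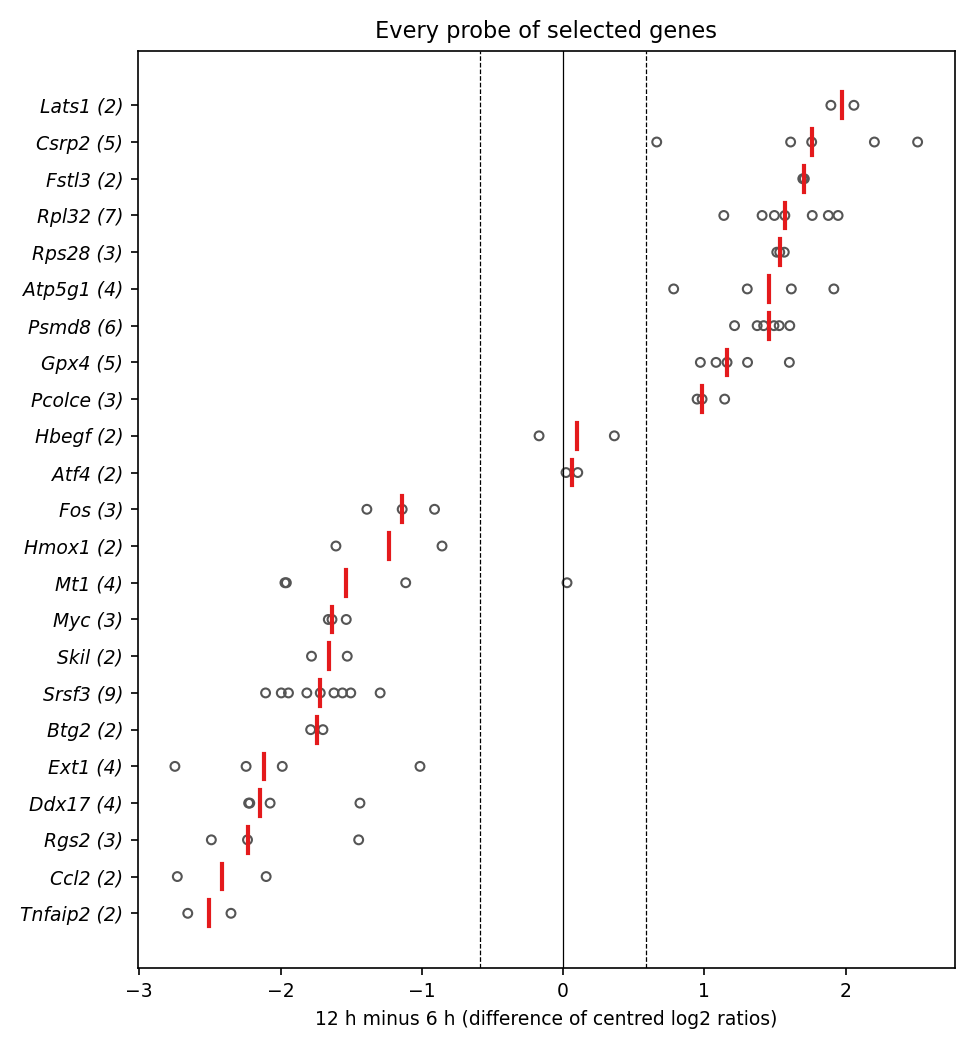
Difference between 12 h and 6 h for every probe (circles) and the gene's median (red bar) of 23 genes described in the text, with the number of probes in brackets; dashed lines mark 1.5-fold. The 9 probes of Srsf3 lie between -2.11 and -1.29, the 7 of Rpl32 are all above 1.1, and those of Hbegf and Atf4 straddle or touch 0.

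Immediate-early genes, which growth signals and stress switch on within minutes without new protein synthesis, were among the groups lower at 12 h. The 16 genes measured were 7 of the Klf, Nr4a and Ier families and 9 others: Myc, Btg1, Btg2, Gadd45a, Gadd45b, Gadd45g, Rgs2, Cited2 and Plk2. Of these 16 genes 7 were past 1.5-fold on the lower side and 0 on the higher, against 14.2% lower in the background. The list's median went from 1.37 at 6 h to 0.70 at 12 h, and the median difference was -0.45. Myc, the growth-promoting transcription factor, read 2.32, 2.33 and 2.73 at 6 h and 0.78, 0.67 and 1.10 at 12 h. The groups of probes did not overlap, and the difference was -1.64. Btg2, an antiproliferative early gene, read 2.06 and 2.46 and then 0.27 and 0.77, a difference of -1.74. Rgs2, a brake on G protein signalling, read 1.53, 1.67 and -0.40 at 6 h and -0.71, -0.82 and -1.84 at 12 h, a difference of -2.23. It thus passed from above control to below it on 2 of 3 probes. Klf6 (-1.31), Ier3 (-0.92), Ier2 (-0.65) and Klf9 (-0.63) were the other genes past 1.5-fold, although the probes of Klf6, Ier2 and Klf9 did not all lie on one side of 0. The gene median of Klf9 rose, from -0.74 at 6 h to -0.15 at 12 h, so its direction is not settled.

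Other early genes stayed high. Gadd45b, a growth-arrest gene, stood at 2.23 at 6 h and 2.55 at 12 h, and Klf4, a stress-responsive factor, at 1.47 and 1.38. AP-1 factors, here Fos, Jun, Atf, Batf and Maf genes, had 4 of 8 genes lower and 1 higher (Batf, 0.66). Fos read 1.93, 1.39 and 1.87 at 6 h and 1.02, 0.00 and 0.73 at 12 h, with no overlap and a difference of -1.14. Fosl2 (-0.94), Atf3 (-0.61) and Mafg (-0.59) were also lower, although the probes of Atf3 and Mafg did not all lie on one side of 0. Jun went from a gene median of 2.31 to 0.84, yet the median of its 5 probes' own differences was -0.26, with 1 probe at -3.18. The median difference of the AP-1 list was -0.43 although its median level was 0.08 at 6 h and 0.14 at 12 h.

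The promoters of 2 early genes are printed to show motifs searched in this group. Windows were found for 22 of 24 early and AP-1 genes, 1 each. CCAAT, the letters bound by NF-Y, was in 13 (59.1%), against 37.8% of windows of all measured genes. CACGTG, the E-box of Myc and USF factors, was in 6 (27.3%), against 10.3%. GGGCGG, the GC box of Sp factors, was the commonest of the 3, in 18 (81.8%) against 62.9%. All were searched on both strands, and counts this small are a description only. Among the genes at least 2-fold lower at 12 h with all probes below 0, the shares were 33.0%, 10.5% and 71.0% of 200 windows, in the same order. These 3 motifs were picked from several searched. TGACGTCA, for example, was in 2 early windows (9.09%), against 3.30% of all measured genes. The 100 bases before the start are those of Klf6, on the plus strand at chr13:5861389-5861488, with CACGTG in capitals from 43 bases before the start, and of Rgs2, on the minus strand at chr1:144004150-144004249, with CCAAT in capitals from 94 bases before it. Both were chosen after their values were seen.
Klf6: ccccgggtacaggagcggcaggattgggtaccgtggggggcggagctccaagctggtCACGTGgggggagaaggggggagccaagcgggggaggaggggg
Rgs2: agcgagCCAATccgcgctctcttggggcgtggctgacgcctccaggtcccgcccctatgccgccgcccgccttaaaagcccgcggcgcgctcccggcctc

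The genes furthest above control at 6 h took different courses. The 6 highest were Mt1, Mt2, Hmox1, Hbegf, Noct and Bcl9. Mt1 and Mt2, the metallothioneins that bind zinc and other metals, went from 4.92 to 3.26 and from 4.24 to 3.08, differences of -1.54 and -1.17. One of the 4 Mt1 probes stood at 0.99 and 1.02 and did not follow the others, and the 2 genes are similar enough that spots may share signal. Hbegf, a ligand of the EGF receptor, stayed at 3.52 and 3.62. Noct, a circadian and early-response gene, read 4.20 and 2.33 at 6 h and 0.73 on both probes at 12 h. Bcl9, of the Wnt pathway, rested on probes that differed by -5.63 and 0.28. In all, 344 genes were at least 2-fold above control at 6 h, of which 128 were a further 1.5-fold higher at 12 h, 165 lay between and 51 were 1.5-fold lower. The genes were chosen on the 6 h value, which enters the difference with a minus sign, so this count is tilted towards lower.

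Stress pathways were mixed. Heat shock proteins stood high at both times, with medians of 1.07 and 1.23 over 20 genes, 3 higher and 3 lower. Cryab, a small heat shock protein, read 1.24, 1.33 and 1.18 and then 2.43, 2.30 and 2.07, a difference of 0.97 without overlap. Hspb1, another small heat shock protein, was lower, at -0.86, with probes at -1.70, -0.04 and -0.86, and Dnajb1, an Hsp70 partner, stood at -0.83. In the integrated stress response, Atf4 stood at 1.38 and 1.44 and its target Ddit3 at 1.53 and 1.67. Nupr1, a stress-induced chromatin protein, was higher, at 0.997, and the amino acid genes Asns (-0.78) and Phgdh (-0.55) lay below 0. The unfolded protein response had 1 of 18 genes higher and 1 lower, with a median difference of -0.01.

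TGF-beta is a main growth factor of tendon matrix: its receptors phosphorylate Smad2 and Smad3, which enter the nucleus with Smad4, while Skil and Smurf2 restrain the pathway. The list's median difference was -0.54, with medians of -0.66 at 6 h and -1.25 at 12 h, 6 of 13 genes lower and 2 higher. The ligand Tgfb2 (-0.81), the receptor Tgfbr2 (-0.77), Smad2 (-0.94, 10 probes not all on one side), Smad3 (-0.93) and Smurf2 (-1.05) were lower. Skil read -0.25 and -0.34 at 6 h and -1.78 and -2.12 at 12 h, a difference of -1.65. The genes on the other side were the follistatin-like proteins, secreted binders of related ligands. Fstl3 read 0.61 and 0.60 at 6 h and 2.31 and 2.30 at 12 h, a difference of 1.70, and Fstl1 differed by 1.02. The ligand Tgfb1, at 0.53, did not reach 1.5-fold.

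Secreted signals of inflammation and growth also had members on both sides. Of 14 chemokines, cytokines and receptors, 6 were lower and 4 higher, and the median difference was 0.08 although the list's median level went from 0.43 to -0.24. Its direction depended on the genes counted. It was -1.06 over the 3 genes with 3 or more probes and -0.66 with spots of one clone averaged first. Ccl2, the chemokine that draws monocytes, read 1.65 and 1.62 at 6 h and -0.45 and -1.11 at 12 h, a difference of -2.42. Csf1 (-1.07) and Cxcl12 (-1.06), the factors for macrophages and for stem cell homing, and Lif (-1.003) were lower, and Lifr (0.98), Ccl9 (0.88), Cxcl16 (0.81) and Mif (0.64) higher. Tnfaip2, a TNF-induced gene, read 1.45 and 1.13 and then -1.20 and -1.23, a difference of -2.50. When probes assigned to several symbols were kept, Tnfaip2 had 6 probes and a difference of 0.01, so its value rests on the 2 probes that name it alone. In the FGF, PDGF and VEGF axis 7 of 16 genes were lower and 2 higher (median difference -0.34), among them Fgf18 (-1.47), Pdgfra (-0.95) and Kdr, the VEGF receptor, whose probes differed by -0.15 and -4.67. Vegfa stood at 1.41 and 1.69. The IGF axis had 5 of 8 genes higher and none lower, led by the carrier Igfbp6 (0.75), the RNA-binding Igf2bp1 (0.75) and Igfbp4 (0.72). All probes lay above 0 for 3 of the 8 genes. The median difference of the IGF list was 0.63, although its median level was -0.53 at 6 h and -0.51 at 12 h.

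Genes of focal adhesions and caveolae were lower for 7 of 22 (31.8%, against 14.2% of all genes) and higher for 2. Their median difference was -0.26. Other lists of adhesion and force did not go that way. The integrin list, which includes the binding protein Itgb1bp1, had 2 of 9 genes higher (22.2%, against 21.2% of all genes) and 0 lower. The higher genes were Itgb1bp1 (0.77) and Itga7 (0.71), and the list's median difference was 0.08. Actin and contractile genes had 9 of 28 higher and 4 lower, with 0.10. Pdlim5, a scaffold of actin filaments, was lower on all 5 probes, from -0.59 to -1.74, with a difference of -1.34. Lpp, a LIM protein of focal adhesions, was also lower, at -0.88, and Zyx, which marks strained adhesions, was higher, at 0.67. Targets and parts of the YAP pathway, which reads cell tension, had 3 of 13 genes higher (23.1%, against 21.2% of all genes) and 1 lower. The higher genes were parts of the pathway and not targets: Lats1, Yap1 and Wwtr1. The probes of Yap1 went opposite ways (-0.37 and 2.30). Lats1, the kinase that holds YAP out of the nucleus, read 0.92 and 0.97 at 6 h and 2.82 and 3.03 at 12 h, a difference of 1.98. Amotl2, a YAP target, was lower, at -0.77. Csrp2, a LIM protein of smooth muscle and fibroblasts, had the largest difference on the higher side among genes with 4 or more probes that agreed in sign. Its probes read 1.17, 0.56, 0.34, 0.54 and 0.98 at 6 h and 2.93, 2.77, 0.998, 3.04 and 2.59 at 12 h, and the difference was 1.76.

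RNA processing included lower genes measured by many agreeing probes, although as a list the spliceosome stood near 0 (8 of 55 higher, 5 lower, median difference -0.01). Srsf3, a serine and arginine-rich splicing factor, was measured by 9 probes, which read 0.75, 0.37, 0.83, 0.79, 0.86, 0.73, 0.78, 0.64 and 0.84 at 6 h and -0.87, -1.13, -0.99, -0.93, -1.14, -0.84, -1.33, -0.66 and -1.11 at 12 h. All 9 were above control at 6 h and below it at 12 h, and the difference was -1.72. By gene median, Srsf3 was thus 1 of 15 genes (0.281%) that passed from 1.5-fold above control to 1.5-fold below it. Another 12 genes (0.225%) went the other way. Ddx17, an RNA helicase, read 0.22, 0.17, -0.45 and -0.14 at 6 h and -2.01, -1.90, -1.89 and -2.36 at 12 h, a difference of -2.15. Sf3b1, which recognises the branch point, was lower, at -1.004, on 4 probes between -1.05 and -0.92. Lsm7 (1.64), Sf3b5 (1.43) and Snrpg (1.01), small structural proteins of the splicing particles, were higher. The other genes with 4 or more probes that were lowest at 12 h were Ext1 (heparan sulphate synthesis, -2.12), Naa15 (protein acetylation, -1.57), Pak1ip1 (-1.48) and Rasa3 (a Ras brake, -1.48). Irak1, a kinase of Toll-like receptor signalling, was higher by 1.71. Chromatin modifiers were lower for 14 of 52 genes (26.9%, against 14.2% of all genes) and higher for 5, with a median difference of -0.25. In the quintile of all genes with the lowest mean of both times, 34.4% were 1.5-fold lower. Chd1, a chromatin remodeller, had the lowest value at -2.65, from probes at -3.89 and -1.42.

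All probes lay on one side of 0 for 920 of 1059 genes past 1.5-fold with 2 probes and for 240 of 375 with 4 or more, and 2 signs have fewer ways to disagree. The genes with the largest values on the higher side all had 2 probes. Cacna1d, a calcium channel, differed by 4.26, with probes at -6.63 and 1.06 at 6 h and -0.72 and 3.66 at 12 h. Mapk8ip2 (3.38), Stac (3.29), Ccr1 (3.28), Mylk (3.23), Slpi (3.05), Mdk (2.85), Kbtbd3 (2.81), Pou6f1 (2.61), Serpina1e (2.60), Snrpa (2.58) and Tnnt2 (2.55) followed. The gene median of each of these 12 stood at least 1.41 below control at 6 h. On the lower side the genes not yet named were Setbp1 (-2.47), Bach1 (-2.36), Paqr8 (-2.30), Spc25 (-2.19) and Cartpt (-2.15). The probes of Cartpt were far apart, at -3.83 and -0.47, and the difference between the arrays' own gene medians was 0.0985, which turns its sign.

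**Figure D4:**
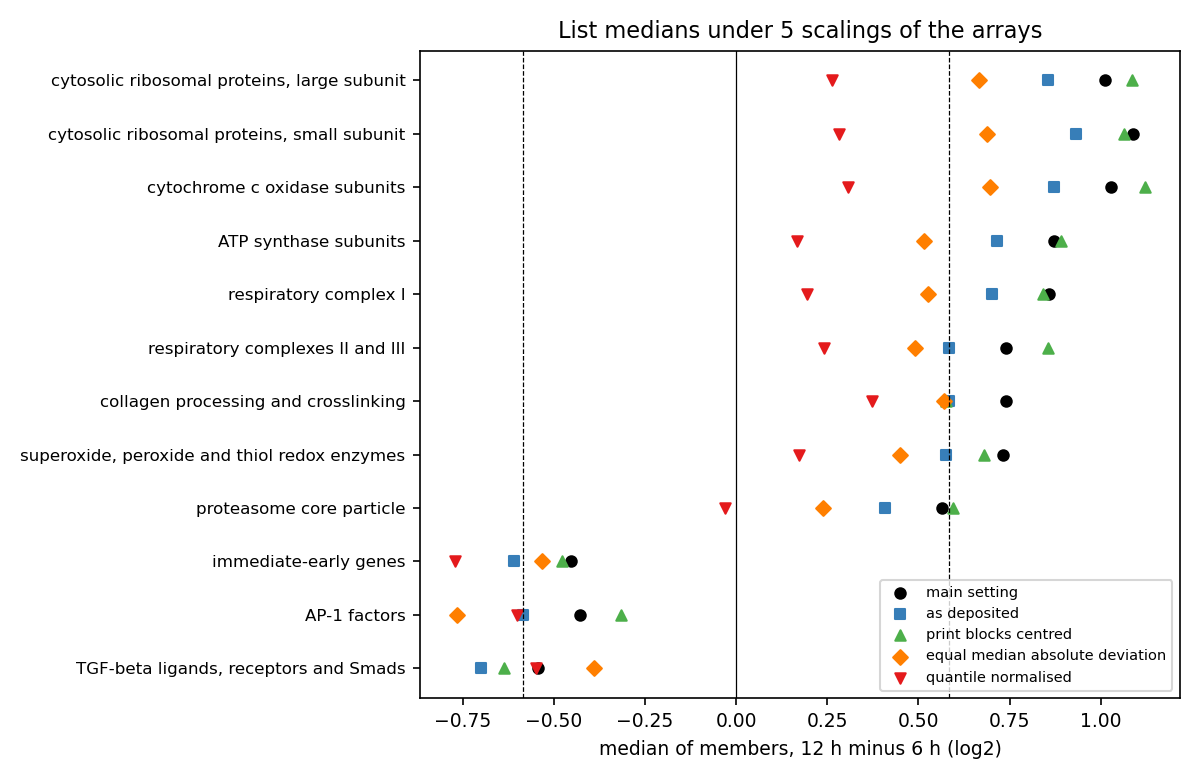
Median difference between 12 h and 6 h (log2) of 12 gene lists under 5 ways of scaling the arrays; dashed lines mark 1.5-fold. The ribosomal lists stay above 0 under all 5 but shrink from about 1 to 0.26 and 0.28 with quantile normalisation (red), and the 3 lists at the bottom stay below 0.

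The difference moved with general features of genes and of the arrays. The 12 h array had the wider spread (median absolute deviation 0.80 against 0.64 at 6 h), and genes high at both times tended to be higher still at 12 h. Over quintiles of the mean of both times, the median difference ran from -0.29 in the lowest to 0.58 in the highest, where 49.6% of genes were 1.5-fold higher. Redox enzymes (medians 0.74 and 1.54, 61.1% higher) and the proteasome core (1.06 and 1.52, 38.5% higher) stood at levels near those of that quintile (0.84 and 1.37). In the lowest quintile (medians -1.08 and -1.28), 34.4% of genes were 1.5-fold lower. Chromatin modifiers stood at -0.67 and -0.995 (26.9% lower), and focal adhesion and caveolae genes at -0.265 and -0.66 (31.8% lower). TGF-beta genes stood at -0.66 and -1.25, with 46.2% lower. The highest quintile without ribosomal and respiratory genes (951 genes) had a median difference of 0.54, against 0.95 for those 125 genes. These sets were not matched in level. The large ribosomal subunit stood at 1.17 and 2.24, above the highest quintile's medians, and not all of the 125 genes lie in that quintile (Cox6b2, -0.92 and 0.58). When the arrays were scaled to one spread, the large and small ribosomal subunits and cytochrome c oxidase stayed past 1.5-fold, and complex I (0.53), ATP synthase (0.51) and complexes II and III (0.49) did not.

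Genes also differed by the stretch of genome they span. Over quintiles of genomic span, with medians of 4.13, 11.3, 22.2, 41.5 and 107 kb, the median difference was 0.41, 0.27, 0.15, -0.07 and -0.18. The share of genes 1.5-fold higher went from 38.015% in the shortest quintile to 11.4% in the longest, and the share lower from 8.24% to 27.3%. The ribosomal lists lie in the shortest quintile (medians 3.18 and 3.47 kb), chromatin modifiers (52.5 kb) and TGF-beta genes (59.5 kb) in the second longest. The whole list of 16 early genes, of which 7 were lower, has a short median span (4.55 kb). The part of genomic span, array spread and RNA quality in the list differences was not tested. By number of probes the median difference hardly moved, from 0.10 to 0.15.

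**Figure D5:**
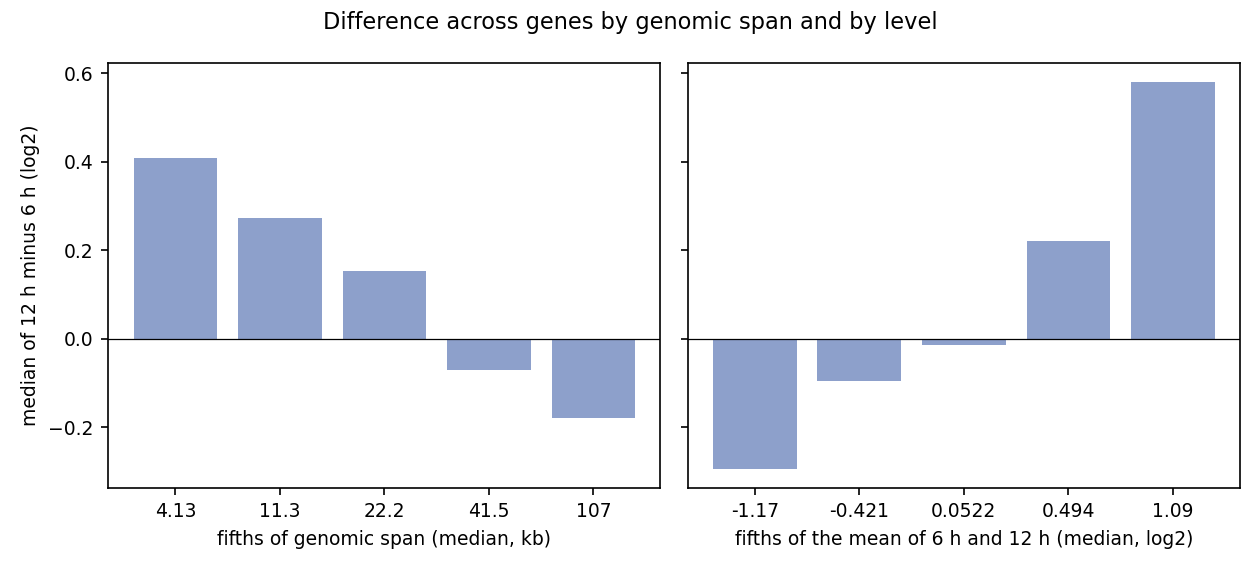
Median difference between 12 h and 6 h (log2) over quintiles of the 5340 genes by genomic span in RefSeq (left) and by the mean of the 6 h and 12 h values (right); the axis gives each quintile's median. It falls from 0.41 in the shortest genes to -0.18 in the longest, and climbs from -0.29 to 0.58 with the level.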

How the data were processed

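Both arrays were read from 1 deposited table of log2 ratios per spot, 42624 spots, of which 39327 had a value on both. Base 2 was assumed, since neither the labels nor the file header states the base. For background correction, spot filters and normalisation, the authors' steps are not given in the sources used here. Each array was centred on its median (-0.32 at 6 h, -0.48 at 12 h). Gene names came from the platform annotation: 21701 spots carry 1 symbol, 1124 several and 19799 none. A gene ID was found in the RefSeq gene table (GRCm38.p6) for 21650 of the 21701, and no symbol needed updating. Genomic span stood in for protein length, as no protein table was used here.

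Genes, lists and thresholds were chosen with earlier results of these data known. Named genes were the 12 highest and 12 lowest among genes past 2-fold with all probes on one side of 0, the 6 each way with 4 or more probes, the 6 each way 1.5-fold on opposite sides of control at the 2 times, the 3 members of each list furthest from 0, and the 6 highest and lowest at 6 h. Unnamed transcripts were passed over. Other genes named to fill out a list were chosen after their values were seen. With 1 array per time no test was run, and precision is limited by their number. The scripts were tested on simulated data. Alternatives covered centring, spread scaling, probe summaries, probe numbers and thresholds. Python 3.11.15, NumPy 2.4.6 and pandas 2.3.3 were used.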

Additional observations from a re-analysis of the deposited data

Results flagged for a closer look

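Listed here are 12 genes that lay at least 1.5-fold on opposite sides of control at the 2 times, the 6 furthest in each direction. They were picked out because the gene's median over its probes was above control at one time and below it at the other. Single probes need not do so. With 1 array per time, this difference was not tested. In total 27 genes did so, 12 of them (0.225%) higher and 15 (0.281%) lower at 12 h.

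Lower at 12 h were Tnfaip2 (-2.50), Ccl2 (-2.42), Kdr (-2.41), Rgs2 (-2.23), Srsf3 (-1.72) and Flvcr1 (-1.66). All probes of these 6 genes had differences below 0, and those of Kdr were far apart (-4.67 and -0.15). A probe each of Kdr and Rgs2 was below control at both times. Flvcr1, a heme exporter, read 0.45 and 0.80 at 6 h and -1.09 and -0.98 at 12 h.

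Higher at 12 h were Cacna1d (4.26), Stac (3.29), Mdk (2.85), Serpina1e (2.60), Tnnt2 (2.55) and Ccdc90b (2.34). Each rested on 2 probes. Those of Cacna1d read 1.06 and -6.63 at 6 h and 3.66 and -0.72 at 12 h, so neither crossed control. A probe each of Stac, Mdk, Serpina1e and Ccdc90b also stayed on its side of control. Those of Stac differed by 0.10 and 6.48, those of Mdk by 0.62 and 5.08, and those of Ccdc90b by -0.25 and 4.93. Tnnt2, a cardiac troponin, had probes at 3.26 and 1.84.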

How the results depend on the processing

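No paired analysis was possible because each time has 1 array and no replicate number, and for the same reason no replicate could be left out. Of the 1131 higher and 756 lower genes, the counts became 506 higher with quantile normalisation, 517 and 311 over genes with 3 or more probes, 2594 and 1695 over all genes with 1 or more, 368 and 251 at 2-fold, and 76 and 51 at 3-fold. Among the ribosomal, respiratory, redox, collagen-processing, early, AP-1 and TGF-beta lists, these medians crossed 1.5-fold. Quantile normalisation gave 0.26 and 0.28 for the large and small ribosomal subunits, 0.20 for complex I, 0.24 for complexes II and III, 0.31 for cytochrome c oxidase, 0.17 for ATP synthase, 0.17 for redox enzymes, 0.37 for collagen processing, -0.60 for AP-1 factors and -0.77 for the early genes. Equal spread gave 0.53 for complex I, 0.49 for complexes II and III, 0.51 for ATP synthase, 0.45 for redox enzymes, 0.57 for collagen processing and -0.77 for AP-1 factors. Without centring, complexes II and III, redox enzymes and collagen processing were each at 0.58, the early genes at -0.61 and TGF-beta genes at -0.70. Print-block centring gave 0.58 for collagen processing and -0.64 for TGF-beta genes. AP-1 factors were at -0.61 from each array's own gene medians, -0.59 with 3 or more probes and -0.60 with 1 or more. Small lists moved too. Chemokines and cytokines went from 0.08 to -1.06 with 3 or more probes and -0.66 with clones averaged, and core histones from 0.12 to -0.62 (quantile) and 0.69 (1 or more probes). The integrated stress response went from -0.23 to -0.66 (quantile). The lowest values were 0.40 for the IGF axis, 0.14 for the proton pump and 0.44 for neural markers, all with quantile normalisation. The sign turned for Fth1 (-0.15), Odc1 (-0.053) and Pgd (-0.0892) with quantile normalisation, Tanc1 (0.0539) with equal spread, Cartpt (0.10) and Ptgis (-0.12) from the arrays' own medians, Tfrc (0.0853) with probe means, and Psmb9 (0.54) and Tnfaip2 (0.01) with probes of several symbols. Apart from the effect of a filter or threshold on the number counted, the cause was not tested. Quantile normalisation turned the sign of 27 of 79 list medians. An alternative added after seeing the data, averaging spots of one clone first, turned the sign of none of the named genes that kept 2 probes and left 3 short of 1.5-fold. Signal over background is unknown, so faint spots could not be set aside.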

Other observations

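Spots without a gene symbol, which enter none of the gene lists, were measured on both arrays in 17832 cases. Their median difference between 12 h and 6 h was 0.25, with 33.5% at least 1.5-fold higher and 15.4% lower. The 20414 spots with 1 symbol had a median of 0.13, with 27.4% higher and 17.98% lower.

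Spots of 1 gene that carry the same clone accession (1107 spots of 518 clones) had a pooled SD of 0.90 at 6 h, 0.93 at 12 h and 0.84 for the difference. Over all probes of the 5340 genes, these spots included, it was 0.73, 0.82 and 0.74. Different clones of the same genes were not set against each other.

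Within the list of skeletal muscle markers, the largest differences on the higher side were those of Mylpf, a fast myosin light chain (-1.01 at 6 h, 0.49 at 12 h, difference 1.32), and Tnnt3, a fast troponin (-0.76 and -0.03, 0.80), while Acta1 and Tnnc1 stood at -0.16 and -0.36. Muscle genes outside that list included Myl1, at 1.46. Among epithelial markers, Dsp (2.22) and Krt18 (1.40) were higher and Esrp1 (-0.56) and Epcam (-0.27) were not.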
